A study of Mus musculus with 7 samples.

Results

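The genes described here encode LSD1 and its CoREST corepressor complex: Kdm1a, Rcor1, Rcor2, Rcor3, Hdac1, Hdac2, Hmg20b and Phf21a. The 8 members were chosen by name, as subunits of the complex that the drug of the study acts on, out of 21631 protein-coding genes. For each of them the chromatin states were read inside the gene and within 20 kb of its ends, which is called its window. The cells were mouse bone marrow leukaemia cells (BALB/c background) in which retroviruses express mutant CSF3R, a cytokine receptor, and mutant CEBPA, a myeloid transcription factor, and both treatment groups carry both. They were grown for 48 h with the LSD1 inhibitor GSK-LSD1 at 4 nM or with its solvent, DMSO. The labels do not give the viral promoter, the number of clones or the number of animals. Histone marks H3K4me1, H3K4me3 and H3K27Ac were each measured by chromatin immunoprecipitation in 1 library per treatment, with 1 input library, 7 libraries in all. The values analysed are the authors' 2 segmentations of the genome, 1 per treatment, into states E1 to E6. There are no replicates, so no test of treatment was possible, and every difference is between these 2 segmentations.

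LSD1 is a flavin-dependent enzyme that takes methyl groups off mono- and dimethylated H3K4, and it needs CoREST (RCOR proteins) to act on nucleosomes. CoREST also binds the deacetylases HDAC1 and HDAC2, so the complex removes both a methyl mark and acetyl marks of active chromatin. In blood cells the repressors GFI1 and GFI1B bring this complex to genes of myeloid differentiation. H3K4me3 is typical of promoters, H3K4me1 of enhancers and H3K27Ac of active elements of both kinds. The sources used here do not say which combination of marks each state number stands for, so the states are described by where they lay. E3 covered 73.3% of the genome in DMSO and 70.1% in GSK-LSD1 and is taken as background, and E2 was the next broadest state (21.3% and 19.3%). E5 and E6 are called start-site states: at the starts of 17274 genes with known strand they were 23.8 and 16.5 times as frequent as in the genome in DMSO, and 16.4 and 13.7 times in GSK-LSD1. E4 bordered mainly E2 and E5. E1 bordered mainly E2 and E6. Whether a given number means the same combination in DMSO and in GSK-LSD1 is not known. E6 covered 0.217% of the genome in DMSO and 2.08% in GSK-LSD1.

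All 8 members had a start-site state at an annotated start in both segmentations, and promoter sequences show what lay there. The sequences are RefSeq promoters (GRCm38), each from 250 bases before to 50 bases after an annotated start, read 5′ to 3′ on the gene's strand. Capitals mark CG dinucleotides, since CpG-rich promoters are the usual sites of H3K4me3. Of the members, 7 matched the promoter table, with 10 entries, and Hdac1 did not. The promoters shown are those of the drug target, of the 3 CoREST paralogues, and of both annotated starts of Phf21a, because the latter lay in different states.

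Kdm1a, chr4:136602674-136602973, minus strand: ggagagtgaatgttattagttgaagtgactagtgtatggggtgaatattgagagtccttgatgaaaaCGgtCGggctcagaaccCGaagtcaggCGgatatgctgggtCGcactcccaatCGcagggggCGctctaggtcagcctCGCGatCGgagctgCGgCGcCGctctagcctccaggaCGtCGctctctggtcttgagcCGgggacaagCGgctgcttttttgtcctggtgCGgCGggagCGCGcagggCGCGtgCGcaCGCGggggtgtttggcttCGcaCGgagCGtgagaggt
Rcor1, chr12:111039117-111039416, plus strand: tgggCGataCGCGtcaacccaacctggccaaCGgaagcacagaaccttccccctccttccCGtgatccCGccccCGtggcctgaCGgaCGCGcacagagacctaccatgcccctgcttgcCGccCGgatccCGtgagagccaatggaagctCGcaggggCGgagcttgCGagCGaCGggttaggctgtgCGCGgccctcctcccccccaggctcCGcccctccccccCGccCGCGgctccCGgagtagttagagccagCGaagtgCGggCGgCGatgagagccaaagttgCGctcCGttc
Rcor2, chr19:7267144-7267443, plus strand: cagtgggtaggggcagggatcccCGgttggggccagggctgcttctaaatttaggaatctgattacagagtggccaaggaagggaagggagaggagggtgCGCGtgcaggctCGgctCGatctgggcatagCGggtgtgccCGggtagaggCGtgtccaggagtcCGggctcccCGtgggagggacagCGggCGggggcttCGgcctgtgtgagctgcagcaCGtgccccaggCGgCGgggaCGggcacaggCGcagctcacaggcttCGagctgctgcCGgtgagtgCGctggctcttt
Rcor3, chr1:192137991-192138290, minus strand: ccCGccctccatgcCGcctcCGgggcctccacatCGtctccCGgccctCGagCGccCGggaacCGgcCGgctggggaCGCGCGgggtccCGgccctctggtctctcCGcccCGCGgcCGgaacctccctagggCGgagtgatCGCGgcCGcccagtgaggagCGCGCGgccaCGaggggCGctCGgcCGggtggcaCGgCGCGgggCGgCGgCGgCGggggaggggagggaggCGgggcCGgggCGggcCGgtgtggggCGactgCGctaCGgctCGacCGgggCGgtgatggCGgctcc
Phf21a, first start, chr2:92185233-92185532, plus strand: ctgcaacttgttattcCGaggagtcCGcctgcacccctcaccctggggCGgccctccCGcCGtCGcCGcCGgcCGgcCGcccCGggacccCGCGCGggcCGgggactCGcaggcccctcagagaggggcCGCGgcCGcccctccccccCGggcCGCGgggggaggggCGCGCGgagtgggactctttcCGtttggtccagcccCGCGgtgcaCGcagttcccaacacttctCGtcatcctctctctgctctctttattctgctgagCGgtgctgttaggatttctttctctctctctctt
Phf21a, second start, chr2:92221222-92221521, plus strand: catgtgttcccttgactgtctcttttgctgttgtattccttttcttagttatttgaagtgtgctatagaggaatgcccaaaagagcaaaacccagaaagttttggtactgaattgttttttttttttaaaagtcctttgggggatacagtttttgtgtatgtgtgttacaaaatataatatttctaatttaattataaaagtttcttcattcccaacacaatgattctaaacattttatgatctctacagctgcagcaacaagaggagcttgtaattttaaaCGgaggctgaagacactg

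The Kdm1a promoter held 29 CG dinucleotides, that of Rcor1 31, of Rcor2 21 and of Rcor3 47, against a median of 7.0 over 32619 promoters in the table. The second start of Phf21a, inside the gene, was of the other kind. It held 1 CG against 31 at the first, with a GC content of 33.3% against 70.0%. It lay in E3 in DMSO and E2 in GSK-LSD1, while the first lay in E5 and then E6. The outer end of the gene, a little further upstream and used as its start below, lay in E6 in both. Over the whole table, promoters with at least 15 CG lay in E5 or E6 in 85.8% of cases in DMSO and 87.0% in GSK-LSD1, and those with at most 4 in 5.39% and 7.98%. The members thus followed the general relation between CG content and start-site state. Motifs were searched on both strands as exact letters, each counted separately so that matches can overlap. Of the 10 member entries, 3 belong to Hmg20b and overlap almost entirely, so the entries are not independent. The GC box GGGCGG was found in 8 of the 10 entries and in 35.9% of all promoters. The motif shares over all promoters were not matched for CG content, which was higher in most member entries. The GC box had 6 matches at Rcor1, 7 at Rcor3, 1 at Rcor2 and 3 at the first start of Phf21a, and 0 at Kdm1a. CCAAT was found in 5 entries, 3 of them those of Hmg20b (37.6% of all promoters), and the ETS core CCGGAA in 1, at Rcor3 (15% of all promoters). A GFI1-type motif, AAATCA and GC with 2 bases of any kind between them, was in 0 of 10 entries and in 0.791% of all promoters.

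Around Kdm1a itself, the gene of the drug's target, the chromatin call differed over most of the window. Only 18.6% of the 92.4 kb had the same state in both segmentations, the lowest share of the 8 members. Background went from 50.4 kb in DMSO to 0.0 kb in GSK-LSD1, and E1 from 1.2 to 22.8 kb. The gene (chromosome 4, 136550533 to 136602787, GRCm38, minus strand) has its start in E5 in DMSO and in E6 in GSK-LSD1. The start-site run there measured 2.8 kb, all E5, under DMSO. Under the drug it measured 3.4 kb, of which 0.8 kb was E6. Nearly all of it lay downstream of the start, with 2786 bp in DMSO and 3186 bp in GSK-LSD1 on that side, against 13 and 213 bp upstream. The start run thus differed little in length, and most of the window's difference lay elsewhere.

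The E1 inside Kdm1a formed long blocks. In GSK-LSD1 it ran from 8.19 to 22 kb downstream of the start, broken by a start-site region from 12.0 to 13.0 kb (136589801 to 136590800, 0.8 kb of E6 and 0.2 kb of E5). That region was E2 in DMSO. A further E1 block, 10 kb long, ran from 32.6 to 42.6 kb, over the place where DMSO had 1.2 kb of E1. A short region of 0.4 kb (136598401 to 136598800), E4 in DMSO, made the third start-site region of the gene. All 22.8 kb of E1 lay inside the gene and 0.0 kb in the flanks. The flanks went from 39.8 kb of background to 0.0 kb and were E2 almost throughout in GSK-LSD1. They are shared with other genes. Luzp1 spans the whole downstream flank and overlaps the 3' end of Kdm1a. Tex46 and Lactbl1 start in the upstream flank, both in E3 in DMSO and in E2 in GSK-LSD1. Inside the gene, background went from 10.6 to 0.0 kb. No end of another gene lay within 2.5 kb of any start-site bin of this window in either segmentation. Start-site area in all was 2.8 kb in DMSO against 4.8 kb in GSK-LSD1, a ratio of 1.71. Its difference of 2.0 kb was larger than that of 55.1% of protein-coding genes, so near the middle.

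**Figure D1:**
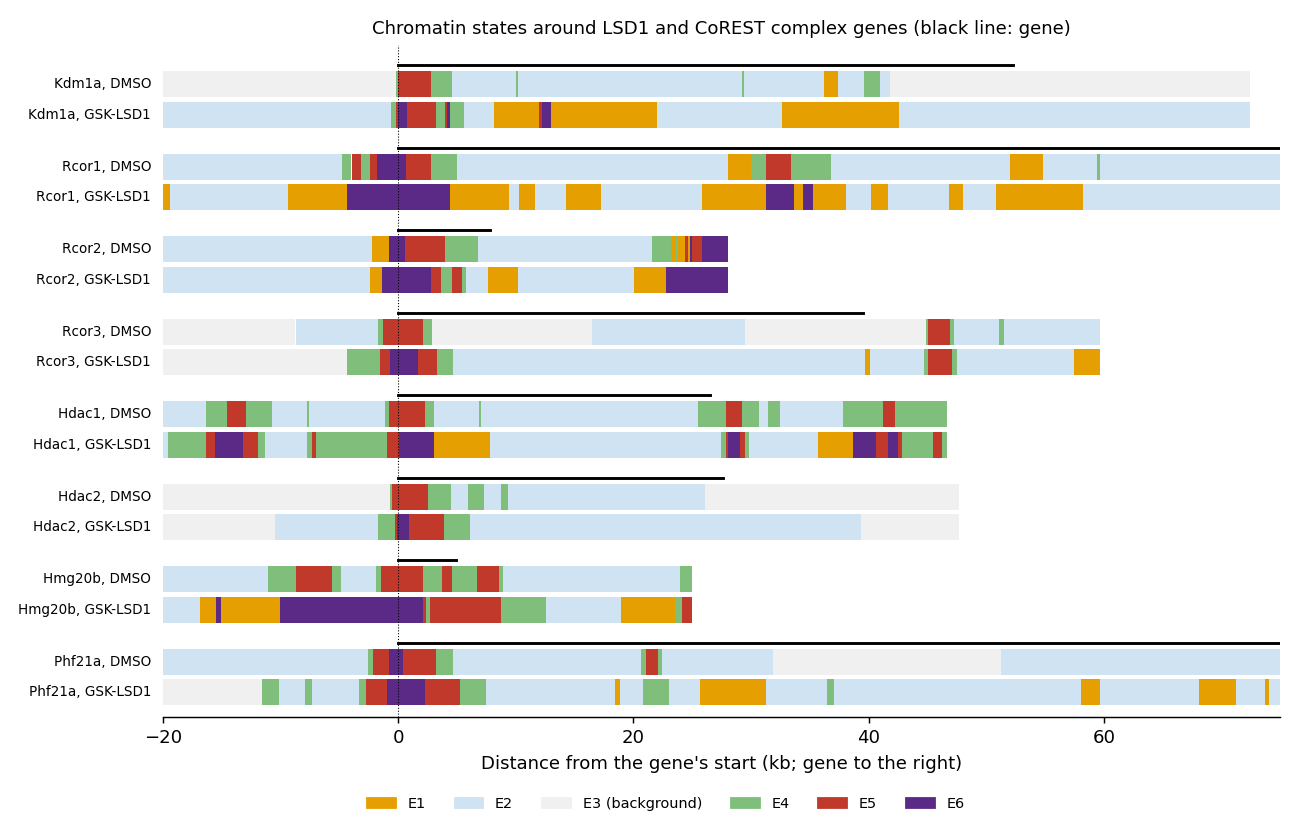
States E1 to E6 along each member in the DMSO (upper row) and GSK-LSD1 (lower row) segmentation, by distance from the gene's start in kb, from 20 kb upstream to 75 kb downstream, so that the far parts of Rcor1 and Phf21a are not drawn. Black lines are the genes, and Hdac1, whose strand is not given in the tables used, is drawn from the end that carries E5. Kdm1a turns from background to E2 outside the gene and carries long E1 blocks inside it, and the start of Rcor1 lies in a single E6 run of 8.8 kb in GSK-LSD1.

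At the scaffold gene Rcor1, E4 and E5 were replaced throughout the window, although 65.9% of its bins, mostly E2, kept their state. RCOR1 is the founding CoREST protein, which bridges LSD1 and the deacetylases and contacts DNA and nucleosomes through its SANT domains. In DMSO its window (chromosome 12, gene at 111039367 to 111115902) held 8.6 kb of E4, 5.8 kb of E5 and 2.4 kb of E6, and in GSK-LSD1 0.0 kb of E4, 0.0 kb of E5 and 12.0 kb of E6. No E4 and no E5 were left, which was so in 2.92% of genes with both in DMSO. At the start, 5.2 kb of E5 and E6 in DMSO became 8.8 kb of E6 alone, reaching 4366 bp upstream and 4433 bp downstream. E1 bordered that run on both sides, by 5.0 kb each, where DMSO had E4 and E2.

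A second Rcor1 site lay within the gene, about 31.2 kb downstream of the start. It was 2.2 kb of E5 (111070601 to 111072800) between stretches of E4 in DMSO. In GSK-LSD1 it was 2.4 kb of E6 with a further 0.8 kb of E6 nearby (111073801 to 111074600), set in E1. E1 over the window went from 5.4 to 34.2 kb, of which 28.4 kb lay inside the gene. There was no background in the window in either segmentation, and E2 went from 94.6 to 70.6 kb. Together E5 and E6 went from 8.2 to 12.0 kb (ratio 1.46).

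Rcor2 and Rcor3 encode its paralogues. RCOR2 is known from embryonic stem cells and neural progenitors, and RCOR3 from blood, where it can hold back LSD1 activity. Rcor2 (chromosome 19, 7267394 to 7275225) is a short gene whose start lay in E6 in both segmentations. Its start run had nearly the same length, 4.8 kb in DMSO against 5.0 kb in GSK-LSD1, but E6 made up 1.4 kb of the first and 4.2 kb of the second. Its upstream edge lay 600 bp further out (793 to 1393 bp) and its downstream edge further in (4006 to 3606 bp). A new region of 0.8 kb of E5 (7272001 to 7272800), E4 in DMSO, lay inside the gene in GSK-LSD1. Further start-site area lay downstream, inside the neighbouring kinase gene Mark2, and reached the window's edge. It covered 3.2 kb of E5 and E6 beside an isolated 0.2 kb in DMSO, and 5.2 kb of E6 in GSK-LSD1. Over the window, E5 and E6 went from 8.2 to 11 kb (ratio 1.34), and 72.2% of bins kept their state, the highest share of the 8.

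Rcor3 (chromosome 1, 192098546 to 192138074, minus strand) lay largely in background in DMSO, 40.4 of 79.8 kb. Its start run went from 3.4 kb of E5 to 4.8 kb, of which 2.4 kb was E6 in the middle and E5 on both sides. Inside the gene 23.8 kb of background in DMSO went to 0.0 kb, and E2 there went from 13.0 to 35.0 kb. Upstream of the start it was otherwise: 7.0 kb of E2 there in DMSO was replaced by E4 and, beyond 2.8 kb of E4, by background. The same run covers the start of the long non-coding RNA gene Gm10516, on the other strand. The other start-site region, 1.8 kb in DMSO against 2.0 kb in GSK-LSD1, lay at the start of Traf5 and stayed E5. E1 was scarce, 0.0 kb in DMSO against 2.6 kb in GSK-LSD1, against 34.2 kb at Rcor1.

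The deacetylase genes Hdac1 and Hdac2, whose proteins are close paralogues found together in CoREST, NuRD and SIN3 complexes, had start-site differences whose order depended on how much flank was counted. Hdac1 (chromosome 4, 129516104 to 129542646) went from 7.0 to 15.4 kb of E5 and E6, a ratio of 2.2 and a difference larger than that of 92.8% of protein-coding genes. Hdac2 (chromosome 10, 36974297 to 37001889) went from 3.0 to 4.2 kb, a ratio of 1.4 and a difference larger than that of 45.1%. Most of the Hdac1 difference lay outside the gene: the flanks went from 4.6 to 12.2 kb and the gene from 2.4 to 3.2 kb. With 10 kb flanks the difference was 1.6 kb in place of 8.4 kb at Hdac1 and 1.2 kb at Hdac2. Inside the genes alone the order was reversed, at 0.8 kb for Hdac1 and 1.4 kb for Hdac2. Its strand is not in the tables used, and only the higher-coordinate end of the gene carried a start-site state, 3.0 kb of E5 in DMSO and 4.0 kb in GSK-LSD1, of which 3.0 kb was E6.

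The flanks of Hdac1 are shared with other genes. A region of 1.0 kb at 129500401 to 129501400 in DMSO was 4.2 kb long in GSK-LSD1 (129499801 to 129504000). A region inside the T cell kinase gene Lck went from 1.6 kb (129555601 to 129557200) to 4.4 kb (129554601 to 129559000). The start of Lck lies outside the window and was in E4 in both segmentations, and the start of Marcksl1, at the other side of Hdac1, was in E5 in both.

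Hdac2 stood alone, with 0 annotated genes besides itself in its window. Its start run covered 3.0 kb of E5 in DMSO and 4.2 kb in GSK-LSD1, of which 1.0 kb was E6. The run began 496 bp upstream in DMSO and 296 bp upstream in GSK-LSD1, and its downstream edge lay at 2503 and 3903 bp. The window had no E1 in either segmentation, the only member for which this was so. Background went from 41.0 to 18.0 kb and E2 from 19.6 to 42.0 kb, so that E2 extended beyond both ends of the gene.

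Hmg20b and Phf21a encode subunits that touch DNA and histone tails: HMG20B (BRAF35) carries an HMG box, and PHF21A (BHC80) a PHD finger that binds unmethylated H3K4. Hmg20b (chromosome 10, 81346046 to 81350943, minus strand) had a start-site area of 9.2 kb in DMSO and 19.6 kb with the inhibitor, a ratio of 2.13 and a difference larger than that of 95.8% of protein-coding genes. Its window was also the most densely marked, with 20.4% in E5 or E6 in DMSO and 43.6% in GSK-LSD1. In DMSO the starts of Hmg20b and of the divergent neighbour Mfsd12 had separate E5 regions, 3.6 kb and 3.0 kb long. In GSK-LSD1 a 12.4 kb run covered both (81348601 to 81361000), of which 12.2 kb was E6. It reached 10057 bp upstream of the Hmg20b start. On the other side a 6.0 kb E5 run joined the 3' part of Hmg20b with the start of Gipc3, where DMSO had 1.8 and 0.8 kb. The window also reaches Cactin, Tbxa2r, 4930404N11Rik and Fzr1. Without bins near the ends of other genes the difference was 4.8 kb in place of 10.4 kb, below the 5.4 kb of Hdac1. Inside the gene alone it was 1.6 kb, below the 2.6 kb of Rcor1 and the 1.8 kb of Kdm1a, so its first rank with 20 kb flanks rests on the flanks and neighbours.

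Phf21a (chromosome 2, 92183751 to 92364667) is the longest member, and its start-site area differed least in proportion, 13.2 against 16.2 kb (ratio 1.23). The start run went from 5.4 to 8.0 kb, further out on both sides, and its E6 core from 1.2 to 3.2 kb. A 1.0 kb E5 region inside the gene (92204801 to 92205800) was E4 in GSK-LSD1. It was the only one of the 22 start-site regions of the member windows in DMSO without overlap in GSK-LSD1, against 5.21% of such regions in the windows of all protein-coding genes, a share near that of the members. Beyond the 3' end, between Large2 and the start of Pex16, regions of 2.2 and 4.6 kb in DMSO lay within a single run of 8.2 kb in GSK-LSD1. Inside the gene, 63.4 kb of background in DMSO went to 0.0 kb and E2 from 110.6 to 159.6 kb. In the upstream flank 8.6 kb of E2 in DMSO was background in GSK-LSD1, and E1, absent in DMSO, covered 11.2 kb of the gene.

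**Figure D2:**
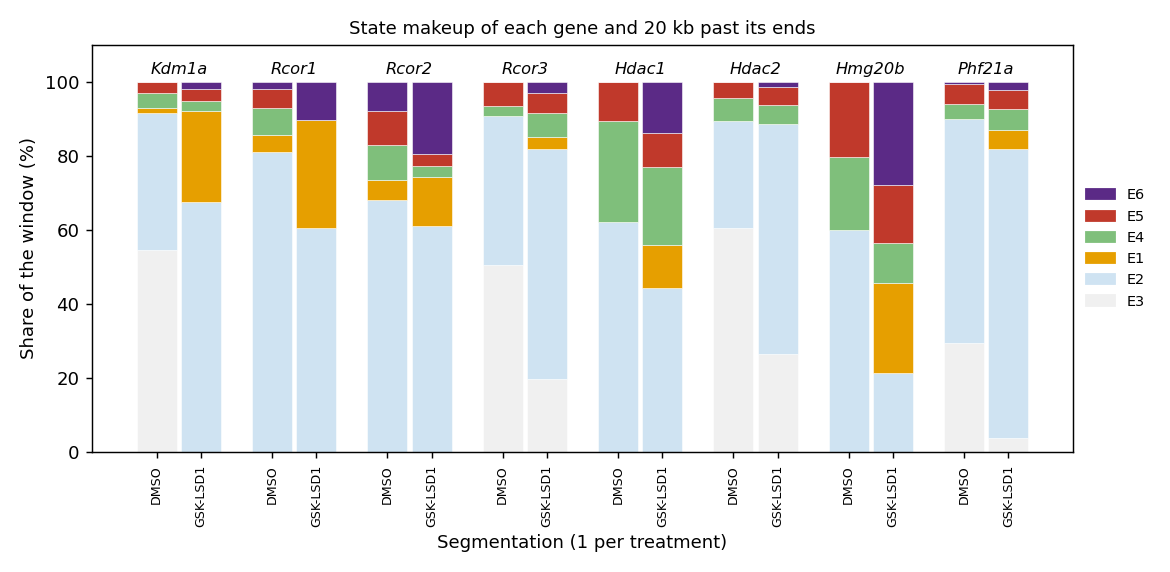
Share of each member's window (gene and 20 kb past its ends) in each state, in percent, for the DMSO and the GSK-LSD1 segmentation; each bar is 1 segmentation, with no replicates. Background (E3) makes up 50.4 of 92.4 kb at Kdm1a in DMSO and 0.0 kb in GSK-LSD1, and Hmg20b has the largest share of E5 and E6 in GSK-LSD1, 43.6%.

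Set side by side, all 8 members had more E5 and E6 in GSK-LSD1, which was so for 66.8% of all protein-coding genes. The direction was therefore that of most genes. At least 1.5 times the DMSO area was seen in 3 of 8 (Kdm1a, Hdac1 and Hmg20b), against 45.6% of genes with some in DMSO. The median difference was 2.9 kb for the members and 1.4 kb for all genes, and the median ratio 1.43 and 1.45. Windows of the members were longer, at a median of 73.8 kb against 57.6 kb, and had more E5 and E6 in DMSO, 7.6 against 3.6 kb. In order of DMSO area the members were Kdm1a, Hdac2, Rcor3, Hdac1, Rcor1 and Rcor2 (equal), Hmg20b and Phf21a, and with no replicates the spread between neighbours in this order is unknown. Of the 33.2 kb by which the summed area differed (56.8 and 90 kb), Hdac1 and Hmg20b made up 18.8 kb, or 56.6%. Inside the genes the sum went from 26.8 to 37.6 kb and in the flanks from 30 to 52.4 kb. As a share of the 738 kb of member windows, E5 and E6 went from 7.70% (95% Wilson interval 6.88 to 8.60) to 12.2% (11.2 to 13.3). These intervals cover counting error only.

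**Figure D3:**
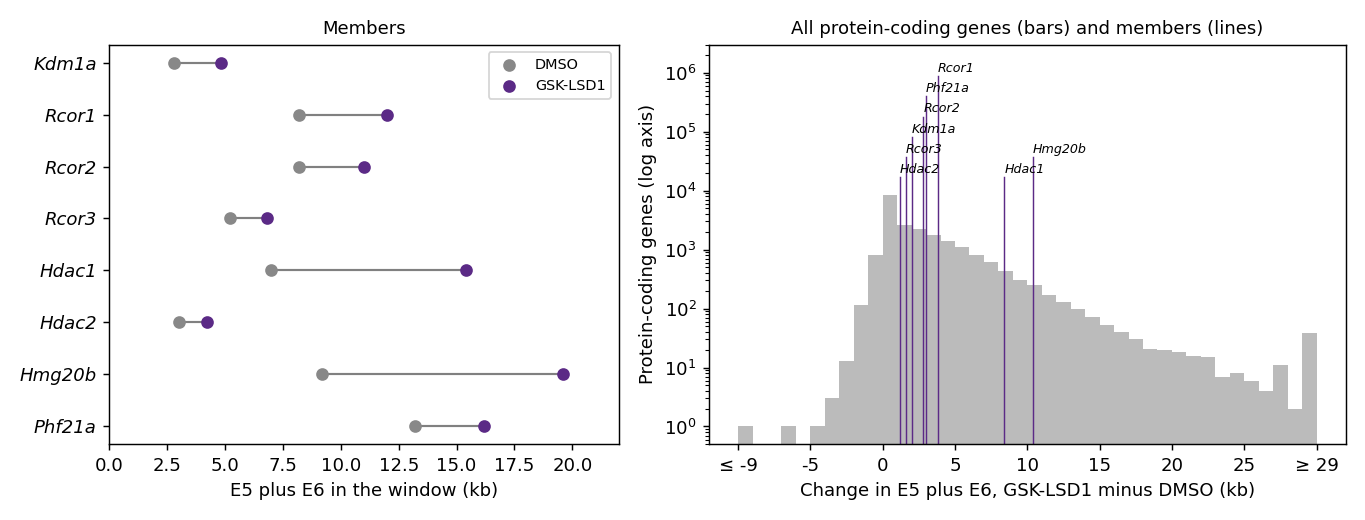
Left, kb of E5 plus E6 in each member's window in DMSO (grey) and GSK-LSD1 (purple), 1 segmentation each. Right, number of protein-coding genes (log axis) by difference in E5 plus E6, GSK-LSD1 minus DMSO, with the members as lines and the outermost bars holding all larger differences; 6 members lie between 1.2 and 3.8 kb, and Hdac1 (8.4 kb) and Hmg20b (10.4 kb) lie further out.

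The larger area came with an exchange of E5 for E6. E6 area was higher in 8 of 8 members (55.2% of all genes) and E5 area lower in 6 of 8 (40.9%), the exceptions being Kdm1a and Hdac2, at 0.2 kb more each. With E5 alone counted as the start-site state, 2 of 8 members had more and 6 had less, so the direction rests on E6. E4 area was lower in 6 of 8 (42.1%), and higher at Rcor3 and Phf21a. Of the start bins, 8 of 8 were in E5 or E6 in DMSO (50.5% of genes) and 8 of 8 in GSK-LSD1 (53.5%). Among the 7 members with known strand, the start was in E6 in 3 in DMSO (3.59% of genes with strand), namely Rcor1, Rcor2 and Phf21a, and in 7 in GSK-LSD1 (28.5%). The 4 that were in E5 in DMSO, Kdm1a, Rcor3, Hdac2 and Hmg20b, were all in E6, against 50% of genes with strand and a start in E5. The start runs of all 7 were longer, as were those of 89.6% of genes with a start-site state in both. Over those 8598 genes the median run went from 3.6 to 5.2 kb.

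The combined area of E1 and E6 was larger in 8 of 8 members, against 60.2% of all genes, and E1 alone in 7 of 8, against 49.1%. The median difference of E1 and E6 together was 16.1 kb for the members and 2.6 kb for all genes. For E1 alone it was 9.4 and 0.0 kb. In the gene lists compared further below, the median for E1 and E6 together was 25.5 kb for NuRD. It was 13.8 kb for partners of LSD1 and CoREST and 12.8 kb for SIN3 and NCoR complexes. The value of the members thus lay among those of these lists. E1 inside the 8 genes went from 6.0 to 67.6 kb, and in their flanks from 3.2 to 28.4 kb. The members ranged widely. Rcor1 had 38.4 kb more E1 and E6, Hmg20b 23.6 kb and Kdm1a 23.4 kb. Rcor3 had 5.0 kb more and Hdac2 1.0 kb. Of the E1 in the member windows of GSK-LSD1, 81.9% had been E2 in DMSO, and 76.2% in the windows of all genes.

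Background left the bodies of the member genes altogether. In DMSO 4 members had background inside the gene, Phf21a 63.4 kb, Rcor3 23.8 kb, Kdm1a 10.6 kb and Hdac2 1.6 kb. In GSK-LSD1 the area inside all 8 genes was 0.0 kb. The same was seen in 41.8% of genes that had background inside and a start-site state at the start in both, so 4 of 4 is a small count set against a common pattern. Over the windows, background at most 0.5 times that in DMSO was seen in these 4 of 4, against 42.0% of such genes with at least 10 kb of it. It reached 0 in 1 of 4 (Kdm1a), against 14.3% of genes with at least 10 kb. The total area of all marked states was higher in 4 of 8, against 30.7% of all genes, and in 4 of the 4 that had any background, against 46.5%. The other members were marked throughout in both segmentations.

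The fate of each DMSO state in the member windows was set beside that in the windows of all genes. Of E5, 58.7% became E6 (95% Wilson interval 52.5 to 64.7) and 38.1% stayed E5, against 51.2% and 44.9% in the windows of all protein-coding genes. Of E4, 26.6% became E5, 18.9% E6 and 15.8% E1, against 20.2%, 19.4% and 21.0%. All 7.4 kb of E6 stayed E6, against 97.0% in all windows. Of the 196.8 kb of background, 82.4% became E2 (79.9 to 84.7), against 13.3% in all windows. Bins along a gene are not independent, so these intervals are too narrow, and 4 windows supply all of the background. In all, 49.9% of member bins kept their state, against 73.8%. The 2 sets of windows are not matched: 50.5% of all genes had a start-site state at the start in DMSO, against all 8 members. Among genes with such a start in both and at least 10 kb of background, 42.0% had at most 0.5 times as much in GSK-LSD1. In GSK-LSD1, 8 of 24 start-site regions had no overlap in DMSO: 2 each at Kdm1a, Hdac1 and Hmg20b, and 1 each at Rcor1 and Rcor2. Of all such regions in the windows of protein-coding genes, 34.3% had no overlap in DMSO, so this share of the members was near the general one.

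**Figure D4:**
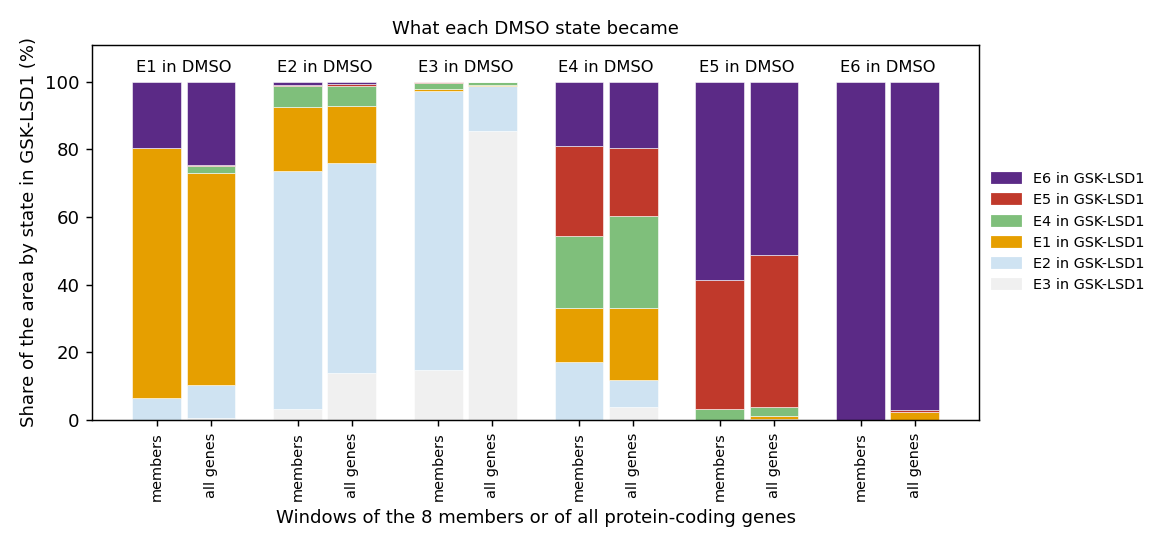
For each state in DMSO, the percentage of its area that lay in each state in GSK-LSD1, in the windows of the 8 members and of all 21631 protein-coding genes; each bar adds to the whole of that DMSO state. The bars of E5 are alike in the members and in all genes, and of background (E3) 82.4% became E2 in the members against 13.3%. Only 4 member windows supply that background, and the windows of all genes are not matched to them for a start-site state at the start.

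The layout at the Kdm1a start was compared with that of other genes over the states within 10 kb of the start in both segmentations, 202 bins of 200 bp. The closest of 17274 genes were Dtx2 (88.1% of bins equal), Lipa (86.1%) and Ddx47 (84.2%), and the median gene had 28.7%. Among the members with known strand, Hdac2 was closest to Kdm1a, at 80.2%, and Hmg20b the least close, at 14.4%. Hdac1, whose strand is not given, was not compared. The measure counts long stretches of E2 and background as much as the promoter itself.

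Of 17 genes outside the members, listed as partners or relatives of LSD1 and CoREST, 15 had more start-site area (66.8% of all genes). Their median difference was 5.2 kb (1.4 kb over all genes). The list held 10 of 17 at 1.5 times or more (45.6% of genes with some in DMSO). The largest differences were at Gse1, a partner found with CoREST (60.0 to 94.2 kb in a window of 393 kb), the zinc finger gene Rreb1 (34.6 to 54.8 kb). Next came the SNAG-domain repressors that recruit LSD1: Gfi1 had 5.2 kb in DMSO against 22 kb in GSK-LSD1, and Gfi1b 10.6 against 25.6 kb. Insm1, a neuroendocrine repressor with a SNAG domain, had less, 2.2 and 1.4 kb, and Snai1 had 1.8 kb in both. Both were picked out because of their values. The second H3K4 demethylase of the LSD family, Kdm1b, also picked out afterwards, went from 5.2 to 9.4 kb. No member had a difference as large as that of Gfi1 or Gfi1b.

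Other corepressor complexes that share HDAC1 and HDAC2 or resemble CoREST were read against the same shares of all genes, 66.8% with more and 45.6% at 1.5 times or more. In NuRD 12 of 12 genes had more start-site area, with a median difference of 5.6 kb, and 5 of 12 were at least 1.5 times, near the share of all genes. The largest were Mta3 (12.0 to 25.2 kb), Gatad2a (23.6 to 35.4 kb), Mta2 (27.2 to 38.8 kb) and the remodelling helicase gene Chd3 (11.2 to 21.4 kb). In SIN3 and NCoR complexes 17 of 17 had more, 10 of 17 at least 1.5 times, with a median of 3.6 kb. Tbl1xr1 went from 7.2 to 16.2 kb, the deacetylase gene Hdac3 from 19.2 to 28.0 kb, the corepressor gene Ncor1 from 7.0 to 15.6 kb and Gps2 from 25.4 to 32.6 kb. The median of 2.9 kb in the LSD1 and CoREST members was thus below those of the other 3 lists and above that of all genes, a difference that was not tested.

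Markers of cell types were read in the same way to check the label. Of 10 granulocyte progenitor markers, 4 had a start-site state at the start in DMSO and 7 in GSK-LSD1. Over all protein-coding genes the shares were 50.5% and 53.5%. In DMSO the granulocyte count thus lay below the general share, and below that of the erythroid and megakaryocyte list. The summed E5 and E6 of the granulocyte markers went from 73.8 to 122.8 kb. Per gene it was 0.0 to 19.8 kb in DMSO and 2.8 to 25.4 kb in GSK-LSD1. The sums of this and the other marker lists add whole windows, so area shared by overlapping windows would be counted again. Area in a window can also belong to a neighbouring gene. Srgn, with the largest area of this list in DMSO, had its start in E2 in DMSO and in E1 in GSK-LSD1. The largest differences were at Cebpe (6.2 to 17.8 kb), Ctsg (0.0 to 6.0 kb), Srgn (19.8 to 25.4 kb) and Prtn3 (11.4 to 16.6 kb). The start of Mpo, encoding myeloperoxidase, was in E4 and then E6, that of Elane, encoding neutrophil elastase, in E2 and then E1. Of 7 B and T lymphocyte markers 0 had such a start in either segmentation (summed 34.8 and 55.2 kb, at most 14.6 and 15.4 kb per gene, Cd8a at 0.0 kb in both). For erythroid cells and megakaryocytes the counts were 4 and 3 of 6 (38.4 and 63.2 kb, at most 13.0 and 20.2 kb per gene), with Hbb-bt at 0.0 kb in both but Klf1, Pf4 and Itga2b in a start-site state in both. For stroma and endothelium they were 1 and 0 of 6 (4.0 and 8.6 kb, at most 1.4 and 4.6 kb per gene), with Col3a1 at 0.0 kb in both and Cdh5 in DMSO. The part that any other cell type plays in the members' values was not tested. The segmentations hold no counts, so sequencing depth is unknown. They have 136061 segments in DMSO and 162731 in GSK-LSD1.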

How the data were processed

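The authors aligned reads with Bowtie to mm10 (GRCm38), per the submitters' processing notes, and deposited 1 segmentation per treatment, which per the labels belongs to all 3 marks. Each segment carries a state label, E1 to E6. The segmentation tool and how the input entered are not stated in what was used here. State labels carry no signal heights, so differences in library depth cannot be separated from differences in marks.

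Segments were expanded to 200 bp bins on chromosomes 1 to 19 and X. Gene spans came from RefSeq (GRCm38.p6) and strands from its promoter table, which covers 79.9% of protein-coding genes; for the others both ends counted as starts. Exon structure was not used here. States at least 5.5 times enriched at starts in DMSO were start-site states. The members, gene lists and alternatives were chosen with earlier results of these data known. Named genes are the members, the 4 largest absolute differences in start-site area per list and the 3 genes closest to Kdm1a. Of the marker lists, only some are named. Neighbours whose start lies in a member window were also open to naming. Luzp1, Mark2, Large2, Cactin, 4930404N11Rik and Fzr1 were named after their values were seen. So were Kdm1b, Insm1, Snai1 and the markers Mpo, Elane, Cd8a, Hbb-bt and Col3a1. The area calculation was tested on planted gains in 200 of 21631 genes, and all 200 were recovered exactly. Python 3.11.15, pandas 2.3.3 and scipy 1.17.1 were used.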

Additional observations from a re-analysis of the deposited data

How the results depend on the processing

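The count of 8 members with more E5 and E6 held with 10 kb flanks, 50 kb flanks, the gene alone, without bins within 2.5 kb of other genes' ends, without 1-bin segments, and with 1 bin taken off each side of the regions in GSK-LSD1. Without bins near other genes' ends it rested at Rcor3 on 0.2 kb, the width of 1 bin. In that setting 6 members had a start-site state at a start, in DMSO and in GSK-LSD1 alike. The count with more E5 and E6 fell to 2 with E5 alone, where 0 members reached 1.5 times, 5 starts in DMSO and 1 in GSK-LSD1 were in the state, and the share of the windows was 6.69% in DMSO and 4.93% in GSK-LSD1. With E5 alone the differences turned negative, at -5.8 kb for Rcor1, -2.8 kb for Rcor2, -2.2 kb for Hmg20b, -1.0 kb for Phf21a, and -0.8 kb for both Rcor3 and Hdac1; E6 is then counted as lost area. The count at 1.5 times, 3 as reported, was 5 with 50 kb flanks and 5 with the gene alone. It was 2 with 10 kb flanks, 2 without 1-bin segments and 2 with trimmed regions. At Kdm1a the difference of 2.0 kb, on 2.8 kb in DMSO, was 1.2 kb without 1-bin segments and 0.8 kb with trimmed regions. In these 2 settings Kdm1a was below 1.5 times. Shares of E5 and E6 were 6.41% and 9% in the genes alone, 5.89% and 9.52% without bins near other genes' ends, and 10.9% in GSK-LSD1 with trimmed regions. The count with more marked area was 7 without 1-bin segments and, in a setting chosen after seeing the data, 8 with E2 as background. No paired analysis was possible because each treatment has 1 segmentation, and depth is unknown, so what it limits could not be measured.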
